A study of Rattus norvegicus with 6 samples.

Results

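The respiratory chain genes described here were all those whose symbol places them in the mitochondrial oxidative phosphorylation system, measured in 2 kinds of glomerular isolate from the rat kidney. Members were chosen by name and not by their values. A probeset (a group of array probes read as 1 value) counted when the platform annotation gave it exactly 1 gene symbol and that symbol started with Nduf (complex I), Sdha to Sdhd (complex II), Uqcr or the name Cyc1 (complex III), Cox4 to Cox8 (complex IV) or Atp5 (complex V), or was Cycs, cytochrome c. This gave 97 probesets and 84 genes, out of 15310 probesets and 14506 genes with 1 symbol on the array. Where a gene had several probesets, the one with the highest mean over the 6 arrays stood for it. Of the 84 genes, 37 carry the prefix of complex I, 7 that of complex II, 7 that of complex III, 16 that of complex IV and 16 that of complex V, and Cycs is the remaining one. Cyc1 was not matched to such a probeset and was not analysed here. The rule also takes in genes that are not subunits, namely 6 assembly factors (3 Ndufaf and 3 Sdhaf genes), the supercomplex factor Cox7a2l, the inhibitor Atp5if1 and 2 genes annotated as pseudogenes.

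All rats were male Sprague-Dawley animals without a treatment or a genetic change, their age is not stated, and no cells were cultured for these arrays. Parietal epithelial cells (PECs) line the inside of Bowman's capsule around the glomerular tuft. The PEC-enriched isolates stayed on the 90 µm sieve and were enriched for glomeruli that had kept their capsule. The PEC-deprived isolates were collected on the 75 µm sieve and held mainly glomeruli without a capsule, with 3 arrays of each. Neither kind was pure. By the study's counts, every PEC-enriched preparation also held glomeruli without a capsule, and tubule pieces were counted in preparations of both kinds. The highest share of tubule pieces was in a PEC-deprived preparation, while the other PEC-deprived ones held few or none. Sieving sorts whole glomeruli and not cells, so each array reads the tuft, the capsule where present and any tubule pieces that came along.

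The respiratory chain passes electrons from NADH through complex I, or from succinate through complex II, to ubiquinone, complex III, cytochrome c and finally complex IV, which reduces oxygen. Complexes I, III and IV pump protons across the inner mitochondrial membrane, and complex V, the ATP synthase, uses the gradient to make ATP. In the kidney the chain is most abundant in tubule cells that carry out active transport, above all in the proximal tubule and the thick ascending limb, while glomerular cells hold fewer mitochondria than these.

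The promoters of these genes are described first, since the choice by name did not use their sequence. Whether the motifs bear on the array values was not tested. RefSeq promoter windows (GRCr8, 250 bases before to 50 bases after the annotated start) were found for 74 of the 84 genes. Each window was searched on both strands for 5 motifs. The motif of the factor NRF1, searched as GCGCA and GCGC with any 1 base between them, stood in 20.3% of the member windows. It stood in 7.39% of the windows of all 11950 named array genes that have one. The letters CCGGAAG, bound by ETS factors such as GABPA, stood in 32.4% against 13%, and AAGATGGC, the core of the YY1 motif, in 17.6% against 4.23%. The letters TCAAGGTCA, bound by estrogen-related receptors, stood in 2 windows or 2.7%, those of Sdhd and Atp5mc3, against 0.234%. GGGCGG, the core bound by SP1, was no more frequent than elsewhere, at 45.9% against 50.2%. Base composition was alike, with a median GC content of 57.2% in members and 58% in named genes. Of the 115 matches in member windows, 2 overlapped each other. These shares are a description with no test, and a match is not a shown binding site.

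Stretches of 100 bases that end just before the annotated start are given for 6 members. The letters of the NRF1, ETS, YY1 and estrogen-related receptor motifs are in capitals. These 6 were picked with their differences known, to show the motifs beside genes that differ in the results, and do not stand for all members. Over all windows, the 43 members with at least 1 of these motifs had a median log2 difference between isolates of 0.24, and the 31 without had 0.25. The first pair are subunits of complex II, the second the general and the muscle form of a complex IV subunit, and the third a pair of genes for the same mature subunit of the ATP synthase.
Sdha, chr1:30764453-30764552, plus strand: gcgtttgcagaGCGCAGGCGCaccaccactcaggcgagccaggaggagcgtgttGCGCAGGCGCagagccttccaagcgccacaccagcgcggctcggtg
Sdhd, chr8:59850642-59850741, minus strand: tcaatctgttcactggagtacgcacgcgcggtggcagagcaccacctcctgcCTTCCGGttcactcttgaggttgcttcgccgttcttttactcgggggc
Cox8a, chr1:213833624-213833723, minus strand: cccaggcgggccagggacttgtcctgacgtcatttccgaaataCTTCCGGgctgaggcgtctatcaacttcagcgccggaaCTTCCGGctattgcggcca
Cox8b, chr1:205408274-205408373, minus strand: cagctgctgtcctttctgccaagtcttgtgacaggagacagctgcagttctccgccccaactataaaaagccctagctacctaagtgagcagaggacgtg
Atp5mc3, chr3:79220665-79220764, minus strand: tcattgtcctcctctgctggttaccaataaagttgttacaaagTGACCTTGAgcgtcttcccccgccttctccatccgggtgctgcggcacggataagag
Atp5mc2, chr7:135678219-135678318, minus strand: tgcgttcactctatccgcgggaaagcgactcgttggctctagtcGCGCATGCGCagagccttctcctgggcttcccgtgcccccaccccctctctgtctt
The general form Cox8a held the ETS letters at both capital runs, which read CCGGAAG on the other strand, and the muscle form Cox8b held none of these 4 motifs in this stretch.

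The deposited values are log2 expression values after RMA (background adjustment, quantile normalization and summary per probeset), on which a difference of 1 is a doubling. Over all probesets they ran from 2.13 to 13.87, and the array medians lay between 6.69 and 6.75. Differences below are PEC-enriched minus PEC-deprived means of log2 values. Levels are compared between arrays for the same gene and not between genes, since probesets differ in how they bind their targets. Where levels of whole lists are given, they only show how bright the probesets are. The median over all probesets, 6.72, serves only to mark dim probesets. In these bulk isolates fewer cells of a type and less RNA per cell cannot be told apart.

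Most respiratory chain genes read somewhat higher in PEC-enriched isolates, with medians between 0.19 and 0.32 in the 5 complexes. The mean was higher there for 72 of the 84 genes (85.7%) and lower for 12. Over all 84 the median log2 difference was 0.25, or 1.19-fold. For all 14506 named genes 44.8% were on the higher side, and their median was -0.02. In limma, fitted to the 29215 probesets of the array, 0 of the 84 members reached an adjusted p under 0.01, as did 0% of the named genes. The smallest adjusted p of a member was 0.172. At an unadjusted p under 0.05, 37 members were higher and 0 lower, against 7.96% and 5.65% of all named genes. In 41 members (48.8%) the lowest PEC-enriched array stood above the highest PEC-deprived one, against 9.68% of named genes, and in 2 members the reverse held, against 9%. Among the 8642 genes brighter than the median probeset, to which 78 members belong, the shares were 12% above and 10.3% below. Of the members, 67 had a mean level above 8. The genes were read on the same 6 arrays and are not independent of each other.

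**Figure D1:**
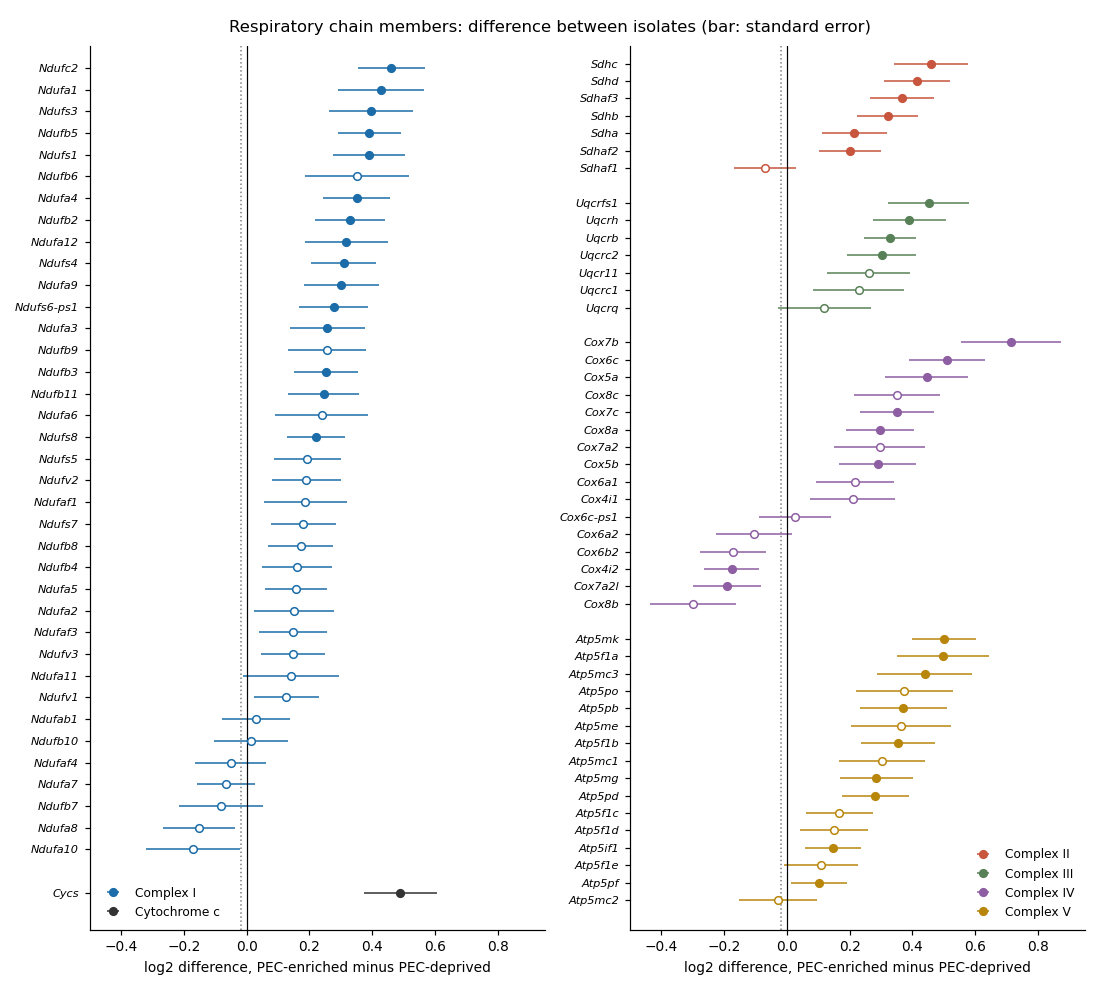
Log2 difference between isolates (x axis) of each of the 84 genes (y axis), coloured by complex, with the limma standard error as a bar and the median of all named genes as a dotted line. Filled points mark the 43 genes whose groups did not overlap, 41 of them higher and 2, Cox7a2l and Cox4i2, lower in PEC-enriched isolates.

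The members followed a common order from array to array. Relative to each gene's own mean, their average was 0.00, 0.22 and 0.11 in PEC-enriched replicates 1, 2 and 3 and -0.06, -0.22 and -0.06 in PEC-deprived replicates 1, 2 and 3. PEC-enriched replicate 1 thus stood nearer to the PEC-deprived replicates 1 and 3 than to PEC-enriched replicate 2. Of the 84 genes, 57 (67.9%) were highest on PEC-enriched replicate 2 and 57 were lowest on PEC-deprived replicate 2, where all named genes gave 24.8% and 18.5%. Complexes I, II, III and V kept the order of PEC-enriched replicates 2, 3 and 1 from high to low, each with PEC-deprived replicate 2 lowest. With single arrays left out, the number of higher members ran from 69 to 74 and the median from 0.19 to 0.31. The count of non-overlapping higher members then ran from 42 to 57, while the share over all named genes, which rises with fewer arrays, ran from 12% to 16.4%. Lower members without overlap ran from 2 to 5, with 4 where PEC-deprived replicate 1 and 5 where PEC-deprived replicate 2 was left out, against 12.8% to 17.7% of named genes.

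**Figure D2:**
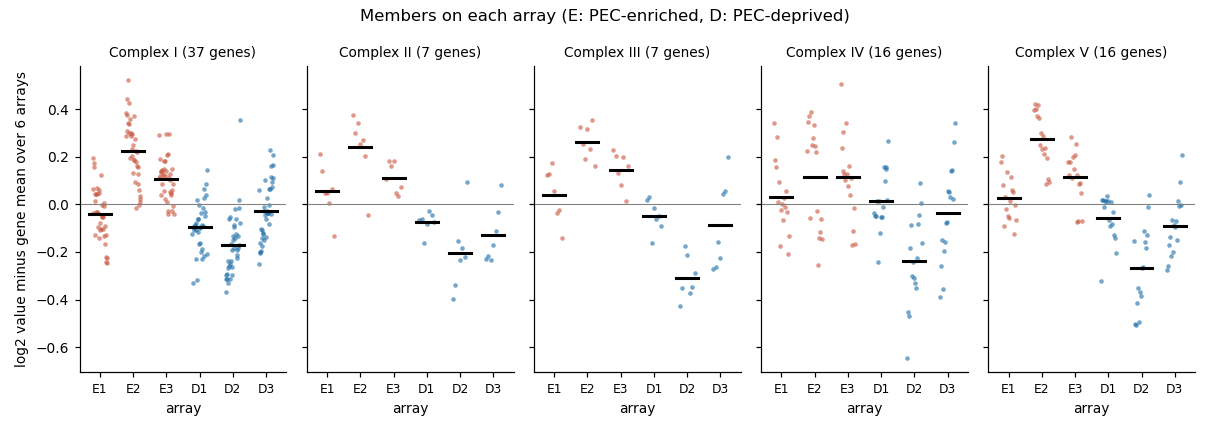
Log2 value of each gene minus its mean over the 6 arrays (y axis), by array (x axis, E1 to E3 PEC-enriched and D1 to D3 PEC-deprived), 1 panel per complex, each point 1 gene and each line the mean over genes. PEC-enriched replicate 2 is highest in each panel (equal to replicate 3 within 0.01 in complex IV) and PEC-deprived replicate 2 lowest.

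Markers of tubule cells and of PECs were higher on the same PEC-enriched arrays. Each of the 19 measured proximal tubule markers was on the higher side, and their median log2 difference was 1.02. Their average relative to each gene's mean lay between 0.23 and 0.92 in PEC-enriched and between -1.14 and 0.18 in PEC-deprived isolates, again with PEC-enriched replicate 2 highest and PEC-deprived replicate 2 lowest. All 8 thick ascending limb markers were higher (median 1.75), between 0.67 and 1.20 in PEC-enriched and between -1.40 and -0.19 in PEC-deprived isolates, where PEC-enriched replicate 1 was the highest. The marker list of distal tubule and collecting duct had 12 of 13 higher (median 0.58) and that of PECs 9 of 10 (median 0.56). PEC markers lay between 0.16 and 0.69 against -0.54 and -0.18. They too had PEC-deprived replicate 2 lowest, and PEC-enriched replicates 2, 3 and 1 in the members' order. Cdh6, Lad1 and Pax8 had the largest differences of the PEC list (1.64, 1.63 and 1.47). The study selected these as candidates among genes higher in these same data, so their direction was known in advance. It also saw CDH6 and PAX8 protein in tubules. Markers of podocytes, which share the tuft with endothelial and mesangial cells, had 4 of 10 higher and a median of -0.03. All 13 endothelial markers had a lower mean (median -0.47), although on PEC-enriched replicate 1 their average was 0.09, near the 0.18 to 0.28 of PEC-deprived isolates and far from the -0.42 and -0.41 of the other PEC-enriched arrays. All 11 leukocyte markers had a lower mean too (median -0.37). The part of tubule, PEC and endothelial RNA in the differences of the respiratory chain genes was not tested, and capsule and tubule content cannot be told apart by these groups.

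Complex I, the NADH dehydrogenase, had the smallest median among the 5 complexes, 0.19. Of its 37 genes 32 were higher, 15 of them (40.5%) without overlap, and 0 were lower without overlap. Over all named genes these shares were 9.68% and 9%, which also stand beside the counts of the other complexes below. Its matrix arm, which takes electrons from NADH, and its membrane arm, which pumps protons, were alike, with 13 of 14 and 15 of 18 genes higher and medians of 0.20 and 0.22.

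Ndufc2, an accessory subunit of the membrane arm, had the highest difference of complex I. Its log2 values were 10.25, 10.44 and 10.16 in PEC-enriched replicates 1 to 3 and 9.93, 9.74 and 9.80 in PEC-deprived replicates 1 to 3. Its groups stood apart by 0.46 or 1.38-fold (standard error 0.106, adjusted p = 0.206 in limma). Ndufa1, another membrane arm subunit, had values of 8.77, 8.99 and 8.99 against 8.37, 8.33 and 8.76, a difference of 0.43. Here PEC-deprived replicate 3 almost reached PEC-enriched replicate 1. Ndufs3, a core subunit of the matrix arm near the ubiquinone site, had values of 9.37, 9.85 and 9.60 against 9.32, 9.12 and 9.21, a difference of 0.40. Ndufs1, the largest iron-sulfur subunit, differed by 0.39 (standard error 0.114, limma adjusted p = 0.295), with 9.92, 10.12 and 9.78 against 9.65, 9.46 and 9.55 and no overlap.

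Not all of complex I stood apart in this way. Ndufv1, the flavoprotein that binds NADH, had values of 10.01, 10.18 and 10.06 against 10.08, 9.81 and 9.98. These groups overlapped, and the difference of 0.13 (standard error 0.105, limma adjusted p = 0.785) was about as large as its error and was 0.0519 without PEC-deprived replicate 2. The lowest differences belonged to the accessory subunits Ndufa10 and Ndufa8, at -0.17 (standard error 0.15) and -0.15 (standard error 0.115). Ndufa10 had values of 7.28, 7.51 and 7.46 against 7.29, 7.86 and 7.61, and Ndufa8 values of 8.88, 9.15 and 9.12 against 9.27, 9.05 and 9.29. Both overlapped between the groups. The 3 Ndufaf assembly factors, which help to build the complex and do not stay in it, lay between -0.05 and 0.19, and all 3 overlapped. Ndufa4, counted under complex I by its name but now known as a subunit of complex IV, differed by 0.35 (standard error 0.106, limma adjusted p = 0.311), with 11.55, 11.85 and 11.65 against 11.42, 11.27 and 11.31.

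Complex II, succinate dehydrogenase, belongs to both the chain and the citric acid cycle. All 4 of its subunits were higher without overlap, by 0.22 to 0.46. The membrane anchors Sdhc and Sdhd had the highest differences, 0.46 (standard error 0.119, limma adjusted p = 0.237) and 0.41 (standard error 0.105, limma adjusted p = 0.23). Sdhc had values of 10.27, 10.44 and 10.17 against 10.0005, 9.67 and 9.84, and Sdhd values of 9.75, 9.91 and 9.79 against 9.55, 9.27 and 9.39. The iron-sulfur subunit Sdhb differed by 0.32, with 9.78, 9.98 and 9.91 against 9.65, 9.50 and 9.56. The flavoprotein Sdha, which holds the succinate site, differed by 0.22, with 10.27, 10.53 and 10.31 against 10.24, 10.08 and 10.15. Its lowest PEC-enriched and highest PEC-deprived array were only 0.03 apart.

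The assembly factors of complex II were mixed. Sdhaf3 differed by 0.37, with values of 6.50, 6.80 and 6.61 against 6.29, 6.30 and 6.22, and Sdhaf2 by 0.20, both without overlap. The mean of Sdhaf3, 6.45, lay below the median probeset level of 6.72, where signal over background is unknown. Sdhaf1 had 7.27, 7.36 and 7.48 against 7.33, 7.50 and 7.49, a difference of -0.07 with overlapping groups.

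In complex III, the cytochrome bc1 complex, all 7 genes were on the higher side, 4 without overlap, and the median was 0.30. Uqcrfs1, the Rieske iron-sulfur protein that hands electrons on to cytochrome c1, had values of 8.41, 8.61 and 8.52 against 8.31, 7.86 and 8.01, a difference of 0.45 (standard error 0.129, limma adjusted p = 0.281). Uqcrh, the hinge protein beside cytochrome c1, had 10.06, 10.18 and 10.14 against 9.96, 9.58 and 9.67, a difference of 0.39. Uqcrb, a small subunit near the ubiquinone site, varied least within its groups, with 10.63, 10.65 and 10.59 against 10.30, 10.28 and 10.30. Its difference was 0.33 (standard error 0.0821, limma adjusted p = 0.228), and its other 2 probesets gave the same difference to 2 decimals. The core protein Uqcrc1 and the small subunit Uqcrq overlapped between the groups, at 0.23 (standard error 0.145) and 0.12 (standard error 0.147). PEC-deprived replicate 3 reached above PEC-enriched replicates 1 and 3 for Uqcrc1 and above every PEC-enriched array for Uqcrq. Without PEC-deprived replicate 2 the differences of Uqcrc1 and Uqcrq were 0.1119 and 0.0048.

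Cycs, the mobile carrier between complexes III and IV, had values of 10.90, 11.08 and 10.93 against 10.66, 10.29 and 10.49. Every PEC-enriched array was the higher one, by 0.49 or 1.40-fold on average (standard error 0.117, adjusted p = 0.214 in limma). A second probeset gave 0.46.

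Complex IV, cytochrome c oxidase, is described by the kind of subunit. Its catalytic core is encoded in the mitochondrial genome, and the nuclear genes measured here encode the subunits around it. All 9 measured general subunits had a higher mean, by 0.21 to 0.71 with a median of 0.30, and 6 did not overlap. Of the 5 forms known from other tissues (Cox4i2, Cox6a2, Cox6b2, Cox8b and Cox8c), 4 had a lower mean, and the median was -0.17. A lower mean was also found for 8005 of the 14506 named genes, and the contrast between general and tissue forms over these lists was not tested.

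Cox7b, a small membrane subunit, had the largest difference of all 84 genes. Its values were 9.05, 8.93 and 9.22 against 8.67, 8.06 and 8.32, a difference of 0.71 or 1.64-fold (standard error 0.159, limma adjusted p = 0.196). It was the only member called by a regularised Bayesian test at a prior weight of 10 (adjusted p = 0.0048), and it was not called at prior weights of 6 and 3. The study lists Cox7b among its differentially expressed genes, but the prior weight that it used is not given in the sources used here. On simulated data the weight of 10 made false calls well above its threshold. The simulation drew independent noise with each probeset's own variance, so its rate of false calls need not hold for these arrays. Nothing rests on this call. That 1 of 84 members is near the 1.41% of named genes that this test called higher. Cox6c had 10.58, 10.74 and 10.63 against 10.34, 9.94 and 10.13, a difference of 0.51 (standard error 0.12, limma adjusted p = 0.21). Cox5a had 9.52, 9.73 and 9.50 against 9.31, 8.89 and 9.21, a difference of 0.45 (standard error 0.132, limma adjusted p = 0.302). In each of these genes the groups stood apart, with PEC-deprived replicate 2 lowest. Cox4i1, the general form of subunit IV, overlapped between the groups, with 9.72, 10.005 and 9.95 against 9.77, 9.43 and 9.84 and a difference of 0.21. Without PEC-deprived replicate 2 it was 0.0857.

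Among the tissue forms, Cox4i2, which is known from lung and from cells around small vessels, had values of 5.58, 5.49 and 5.50 against 5.76, 5.70 and 5.63. Each PEC-enriched array was below each PEC-deprived one, and the difference was -0.18 (standard error 0.0871, limma adjusted p = 0.56). Cox8b, the heart and muscle form, had 5.09, 5.08 and 5.05 against 5.49, 5.06 and 5.56, a difference of -0.30 (standard error 0.137) with PEC-deprived replicate 2 among the PEC-enriched arrays. Cox6a2, also a heart and muscle form, had 6.14, 5.90 and 6.26 against 6.25, 6.07 and 6.29, a difference of -0.10 with overlap. Apart from Cox6b2 (6.84 to 7.17), every value of these forms lay below the median probeset level of 6.72, where signal over background is unknown. The exception in direction was Cox8c, with 5.74, 5.40 and 5.76 against 5.47, 5.27 and 5.10 and overlapping groups. Mesangial, pericyte and smooth muscle markers had 5 of 11 higher means and a median of -0.04.

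Cox7a2l, which joins complexes III and IV into supercomplexes, also went the other way at a much brighter level. Its values were 9.63, 9.78 and 9.83 against 9.86, 9.85 and 10.11. The groups did not overlap, but the gap between them was small and the difference was -0.19 (standard error 0.108, limma adjusted p = 0.64).

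For 3 subunits both the general and the tissue form were measured, and the log2 difference between the forms was compared across the isolates. Cox8b minus Cox8a changed by -0.59 (PEC-enriched -6.25 ± 0.085, PEC-deprived -5.66 ± 0.185, SD, n = 3 for both, exact permutation test, two-sided, p = 0.1, adjusted p = 0.15 over 3 pairs). Cox6a2 minus Cox6a1 changed by -0.32 (exact permutation p = 0.1, adjusted p = 0.15) and Cox4i2 minus Cox4i1 by -0.39 (exact permutation p = 0.2, adjusted p = 0.2). A p of 0.1 is the smallest that 3 arrays against 3 allow, so no pair could pass 0.05. With each array left out in turn the changes ran from -0.67 to -0.49 for Cox8b, from -0.42 to -0.15 for Cox6a2 and from -0.50 to -0.26 for Cox4i2. The value for Cox6a2 was -0.15 without PEC-enriched replicate 2. Each change adds up the differences of both forms, those of the general forms being 0.30 (Cox8a), 0.22 (Cox6a1) and 0.21 (Cox4i1). The tissue forms are dim, and whether they carry signal is unknown.

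**Figure D3:**
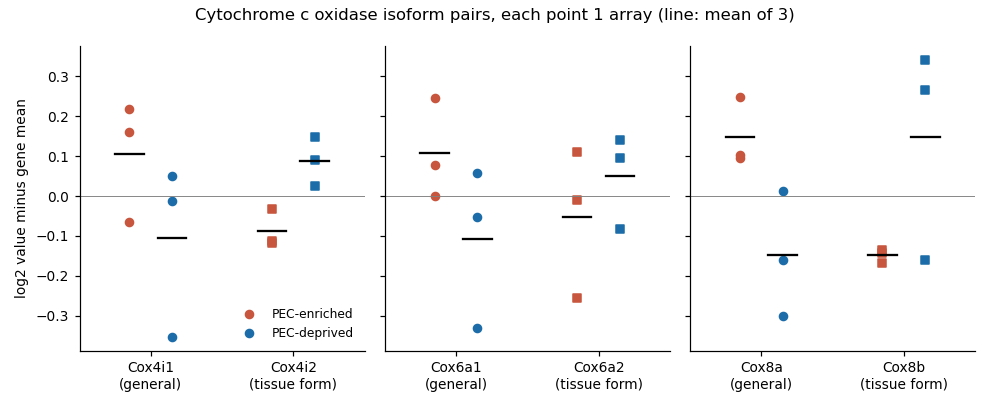
Log2 value of each gene minus its mean over the 6 arrays (y axis) for the general and the tissue form of 3 complex IV subunits (x axis), with arrays as points and their mean as a line. The general forms have higher means in PEC-enriched isolates and the tissue forms lower ones, with overlap in Cox4i1, Cox6a1, Cox6a2 and Cox8b.

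In complex V, the ATP synthase, 15 of 16 genes were on the higher side, 9 of them without overlap, and the median was 0.29. All 5 genes of the F1 head and central stalk, where ATP is made, were on the higher side, the median was 0.17, and 2 did not overlap. The catalytic beta subunit Atp5f1b had 11.50, 11.61 and 11.51 against 11.40, 10.99 and 11.17, a difference of 0.35 (standard error 0.119, limma adjusted p = 0.345). Its partner alpha, Atp5f1a, had 11.48, 11.70 and 11.40 against 11.30, 10.78 and 11.02, a difference of 0.50 (standard error 0.147, limma adjusted p = 0.302). Atp5f1a and Atp5f1b are the 2 without overlap, though PEC-deprived replicate 1 stood 0.11 or less below the lowest PEC-enriched array in both. The largest difference of the complex was that of Atp5mk, a small membrane subunit that helps the synthase to form dimers. Its values were 8.75, 8.97 and 8.75 against 8.25, 8.42 and 8.29, a difference of 0.50 or 1.42-fold (standard error 0.102, limma adjusted p = 0.172, the smallest of all members), and its second probeset gave 0.54.

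The 3 genes for subunit c, which forms the rotating membrane ring, encode the same mature protein with different import sequences. They did not go together. Atp5mc3 had 9.95, 10.28 and 10.05 against 9.89, 9.37 and 9.70, a difference of 0.44 (standard error 0.151) without overlap. Atp5mc1 differed by 0.30 (standard error 0.138), with 8.72, 9.06 and 8.97 against 8.78, 8.38 and 8.68 and overlap. Atp5mc2 had 10.43, 10.59 and 10.42 against 10.29, 10.53 and 10.70, a difference of -0.03 (standard error 0.123) that was 0.07 without PEC-deprived replicate 3 and 0.00 without PEC-enriched replicate 3. The other probeset of Atp5mc2 gave 0.02, and that of Atp5mc3 gave 0.60. The full promoter windows of Atp5mc2 and Atp5mc3 both hold the NRF1 letters, which in Atp5mc3 lie outside the printed stretch, and that of Atp5mc3 also holds the estrogen-related receptor letters. The peripheral stalk gene Atp5pf stood apart between the groups by a margin under 0.01, with 8.48, 8.59 and 8.53 against 8.34, 8.47 and 8.48 and a difference of 0.10 (standard error 0.0899).

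Differences of members are given by the motif in their window. The 43 members with at least 1 of the NRF1, ETS, YY1 or estrogen-related receptor motifs had a median log2 difference of 0.24, and the 31 without had 0.25. By motif the medians were 0.19 for NRF1 (15 members), 0.29 for ETS (24), 0.26 for YY1 (13) and 0.43 for the estrogen-related receptor letters (2). These medians are given without a test, and windows with several motifs count more than once.

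Genes that work beside the chain were read from lists written by hand. All 10 measured genes of the citric acid cycle, which supplies the electrons, read higher, 8 without overlap against 9.68% of named genes, and the median was 0.34. The 2 with the largest difference were Suclg2 and Suclg1, subunits of succinyl-CoA ligase, at 0.55 (standard error 0.126, limma adjusted p = 0.205) and 0.51 (standard error 0.14, limma adjusted p = 0.27). Of 21 genes of electron entry, carriers and exchange 18 were higher (median 0.23), led by the ADP/ATP carrier Slc25a5 and the outer membrane channel Vdac1, each at 0.49. Of 8 mitochondrial antioxidant enzymes 7 were higher (median 0.19), led by the peroxiredoxins Prdx3 and Prdx5 at 0.44 and 0.35. In limma 0 of these genes were called at an adjusted p under 0.01.

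Lists of the machinery that builds mitochondria had smaller medians, but their probesets were also dimmer. Median levels were 7.91 for mitochondrial ribosomal proteins, 8.03 for import genes and 7.76 for assembly genes. Those of the members and the citric acid cycle were 9.15 and 9.64. Among the 84 members the difference rose with level (Spearman rank correlation 0.399, or 0.323 without tissue isoforms and pseudogenes). The part of level in the smaller medians was not tested. The 68 mitochondrial ribosomal proteins had 56 higher means and a median of 0.12, with 13 (19.1%) higher without overlap against 9.68% of named genes. The 21 import genes had 16 higher and a median of 0.12. The 23 assembly genes outside the naming rule had 19 higher and a median of 0.07. Their largest differences were those of Tmem70, needed for the ATP synthase, at 0.55 (standard error 0.106, limma adjusted p = 0.166) and Acad9, of complex I assembly, at 0.20. Outside mitochondria, the 80 cytosolic ribosomal proteins gave 22 higher and 58 lower means with the median at -0.05, and the 39 proteasome subunits 28 higher and a median of 0.06. The median levels of these lists were 10.56 and 9.04.

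**Figure D4:**
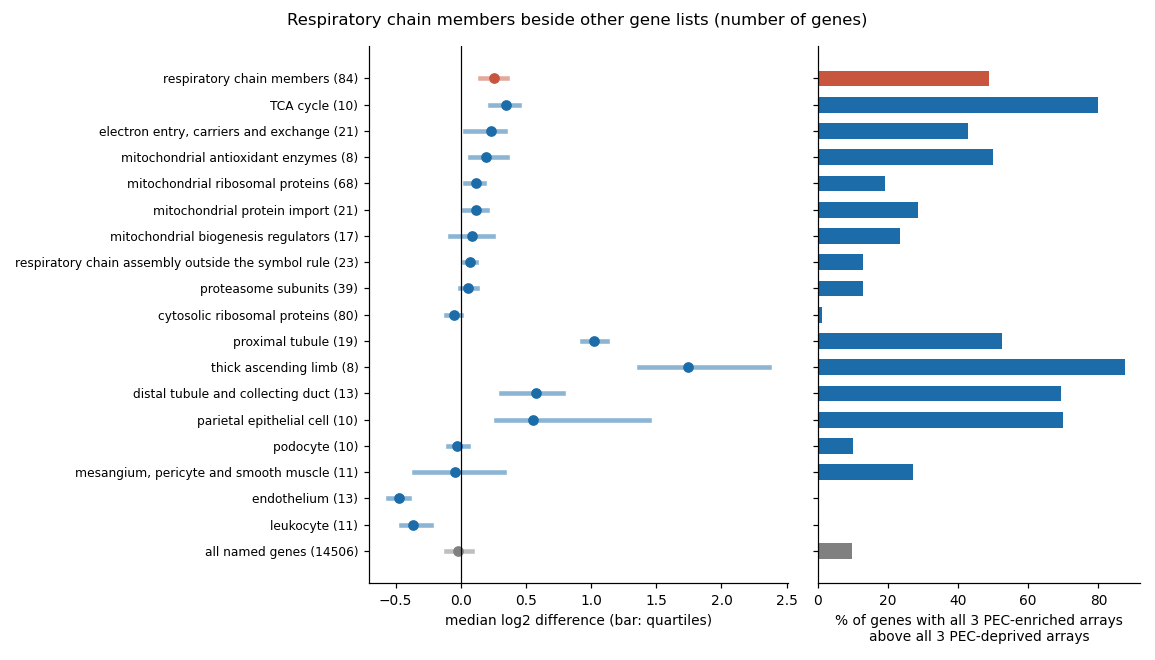
Median log2 difference with quartiles (left) and percent of genes whose PEC-enriched arrays all exceed the PEC-deprived ones (right) for the respiratory chain members, other gene lists and cell type markers, with the number of genes in parentheses. The members lie at 0.25 and 48.8%, above all named genes (-0.02 and 9.68%). Marker lists of tubule cells and PECs lie higher on both. Proximal tubule markers are at 1.02 and 52.6%, and thick ascending limb markers at 1.75 and 87.5%. Those of distal tubule and collecting duct are at 0.58 and 69.2%, and those of PECs at 0.56 and 70%.

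Regulators of mitochondrial gene expression were mixed, with 10 of 17 higher and a median of 0.08. Esrrg, a nuclear receptor of the estrogen-related family, had values of 7.63, 7.71 and 7.52 against 7.07, 6.36 and 6.64, a difference of 0.93 (standard error 0.171, limma adjusted p = 0.166). Ppargc1a, the coactivator that raises transcription of respiratory genes, had 7.90, 8.16 and 7.99 against 7.48, 7.17 and 7.31, a difference of 0.70 (standard error 0.117, adjusted p = 0.159 in limma). The groups stood apart for Esrrg and for Ppargc1a. Esrrg is 1 of the receptors that bind the letters TCAAGGTCA. The values of Nrf1 and Gabpa, which bind the NRF1 and ETS letters and are named here after their values were seen, lay on the lower side. Nrf1 had 8.62, 8.57 and 8.51 against 8.67, 8.62 and 8.66, a difference of -0.08 (standard error 0.085), and Gabpa a difference of -0.10 (standard error 0.093) with overlap.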

How the data were processed

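RNA of 6 glomerular isolates (3 PEC-enriched, 3 PEC-deprived) was hybridised to Affymetrix rat whole-transcript arrays, 1 per preparation. The values deposited by the authors are log2 expression values after RMA. The version of RMA and how probesets were defined are not stated in the sources used here. Without scanner files, signal over background is unknown, and the number of arrays limits precision. RNA came from individual rats, for which the methods give 3 animals, and the samples are not labelled by animal.

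All 29215 probesets were fitted with limma 3.58.1 in R 4.3.3 (lmFit, eBayes, two-sided, no covariate), p-values were adjusted by Benjamini-Hochberg and called under 0.01, and the fit was tested on simulated data. The study used a Bayesian test whose prior weight is not given in the sources used here, so such a test (variance prior over 101 probesets of nearest level, prior weights 10, 6 and 3) was an alternative. Others were the replicate block, array weights, trend, filters, centring, cyclic loess, averaged probesets, an adjusted p under 0.05 and each array left out. Symbols came from the platform annotation and are current in RefSeq (GRCr8). Named genes were, per complex, the 3 highest and 2 lowest, main catalytic subunits, isoform pairs and up to 2 genes of each written list with the largest absolute difference. Other genes named were chosen after their values were seen. Members and lists were chosen with earlier results of these data known. Promoter sequences are from RefSeq. Of 12 genes with several probesets, 1, Atp5mc2, had probesets of opposite sign. Processed copies of these genes are common in the genome, and probesets may share targets with them. Exact permutation tests used scipy 1.17.1.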

Additional observations from a re-analysis of the deposited data

How the results depend on the processing

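No member passed an adjusted p under 0.01 under any limma setting, with each array left out included, or an adjusted p under 0.05 in the unaltered fit. The regularised Bayesian test called 1 member, Cox7b (0.71, adjusted p = 0.0048), at a prior weight of 10 and 0 at 6 and 3. The prior weight of the study is unknown, and at 10 the test made false calls well above its threshold on simulated data. Of the other genes named, it called Esrrg and Ppargc1a, and the study lists these and Cox7b as differentially expressed. With the replicate block, the count of members called stayed at 0. The replicate numbers were not taken as pairs, and the samples are not labelled by animal. The deviations of same-numbered arrays correlated at -0.0287, 0.0519 and 0.1, and those of differently numbered arrays between -0.135 and 0.0827. These values are too alike to tell whether arrays were paired by rat. The median over members lay between 0.24 and 0.27 under the scaling, filter and membership alternatives, and between 0.19 and 0.31 without single arrays. The number of higher members ran from 68 to 74 over all alternatives, the lowest where the 6 assembly factors were left out. Non-overlapping higher members numbered 38 with median centring and 45 with cyclic loess, and 42 to 57 without single arrays, a setting chosen after seeing the data. The shares of named genes under median centring and cyclic loess are not given. Non-overlapping lower members numbered 1 with cyclic loess and 1 over probesets above the median level, which leaves out Cox4i2. Without single arrays they ran from 2 to 5. The isoform pair values kept their sign throughout, within -0.50 to -0.26 (Cox4i2), -0.42 to -0.15 (Cox6a2) and -0.67 to -0.49 (Cox8b). Scaling moved the median of all named genes from -0.02 to -0.03 (median centring) and 0.00 (cyclic loess). Of the 51 single genes recomputed under these alternatives, only Atp5mc2 changed sign, to 0.068 without PEC-deprived replicate 3 and 0.0005 without PEC-enriched replicate 3, in a range from -0.1372 to 0.068 over single arrays left out.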
